A study of Mus musculus with 8 samples.

Results

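The 10 Sox genes described here are Sox2, Sox3 and Sox21 of the SoxB group, Sox4 and Sox11 of SoxC, Sox5 and Sox6 of SoxD, and Sox8, Sox9 and Sox10 of SoxE. They were taken from a list of names, and all of their probes on an Illumina MouseRef-8 v2.0 bead array were read, where each probe gives the average brightness of its beads. The platform table pairs 16 of the 25697 probes with 8 of the genes. It pairs no probe with Sox10 or Sox11, so these 2 were not analysed here. Of the 16 probes, 11 probes of 7 genes were above background on at least 3 arrays and were tested, among 10499 probes and 7407 genes tested in all.

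The Neuron group held 3 samples of neuronal progeny that had differentiated for 4 days in N2B27, a serum-free medium, before replating in Neurobasal with B27. These cells were sorted for RedStar, a red fluorescent protein under the promoter of the neuronal gene Tau (Mapt). The NSC group held 5 samples of neural stem cells without RedStar expression by their label, derived from mouse embryonic stem cells and kept in Euromed-N with N2, FGF2 and EGF. All samples carry the strain label C57BL/6, and no label says whether the replicates are separate cultures. The p-values therefore rest on sample-to-sample spread that could be technical only. All arrays were on 1 chip with the groups at different positions, so position, medium, sorting and cell type cannot be told apart.

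Sox proteins bind DNA through an HMG box, a domain that bends the double helix at short sites with the core ACAAT or ACAAAG, and they act mostly with partner factors. SoxB1 proteins (Sox1, Sox2 and Sox3) keep neural progenitors undifferentiated, and the SoxB2 protein Sox21 was described in the chick as opposing them during neuron formation. SoxC proteins act in new neurons, SoxD proteins have no activation domain of their own and modulate other factors, and SoxE proteins work in glia, with Sox9 at the onset of gliogenesis and Sox8 and Sox10 in oligodendrocytes.

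The 250 bases before the annotated start are shown for Sox21 and Sox4, whose levels were higher in neurons on every probe tested, for Sox2, where 1 of 2 probes passed, and for Sox5, which was lower on every probe tested. The Sox5 window ends at a start that lies inside the annotated gene. They come from RefSeq on GRCm38.p6, read 5′ to 3′ on the gene's strand, and capitals mark ACAAT or ACAAAG on either strand. The window of Sox21 is chr14:118237031-118237280 on the minus strand, that of Sox4 chr13:28953700-28953949 on the minus strand, that of Sox2 chr3:34649745-34649994 on the plus strand and that of Sox5 chr6:143947107-143947356 on the minus strand.
Sox21: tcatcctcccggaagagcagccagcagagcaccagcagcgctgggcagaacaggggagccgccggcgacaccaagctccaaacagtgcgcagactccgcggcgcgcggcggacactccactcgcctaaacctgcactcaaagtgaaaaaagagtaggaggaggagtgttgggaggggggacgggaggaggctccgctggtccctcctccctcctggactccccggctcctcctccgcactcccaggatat
Sox4: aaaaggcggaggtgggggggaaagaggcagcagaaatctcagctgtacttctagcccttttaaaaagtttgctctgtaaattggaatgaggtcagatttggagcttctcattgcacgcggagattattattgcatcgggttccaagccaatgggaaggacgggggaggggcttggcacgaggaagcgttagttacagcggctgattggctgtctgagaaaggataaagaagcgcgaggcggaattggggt
Sox2: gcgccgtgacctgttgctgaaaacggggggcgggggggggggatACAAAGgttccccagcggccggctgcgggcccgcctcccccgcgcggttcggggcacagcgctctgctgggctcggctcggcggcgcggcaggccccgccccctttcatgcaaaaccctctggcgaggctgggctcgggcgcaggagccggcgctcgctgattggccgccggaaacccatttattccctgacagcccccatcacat
Sox5: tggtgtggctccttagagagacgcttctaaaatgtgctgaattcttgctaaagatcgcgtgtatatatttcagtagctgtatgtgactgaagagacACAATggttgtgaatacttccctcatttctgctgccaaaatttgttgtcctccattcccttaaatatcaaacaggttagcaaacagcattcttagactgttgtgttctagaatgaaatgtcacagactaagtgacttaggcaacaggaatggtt

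ACAAT, searched on both strands, occurred once in the Sox5 window and in none of the other windows, where 27.7% of 32851 windows of this length in the table hold it. ACAAAG occurred once in the Sox2 window, against 16.5% of windows. The E-box CANNTG, a site of proneural factors that reads the same on both strands, occurred once in the Sox4 window, against 66.2% of windows. The share of G and C was 65.2% for Sox21, 50.8% for Sox4, 72.0% for Sox2 and 39.6% for Sox5, with a median of 52.4% over all windows. These matches describe letters in the windows and say nothing about binding.

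On the arrays, 36.5% to 39.7% of probes were detected, meaning a detection p below 0.01, and the dimmest detected signal of an array lay between 91.2 and 95.8. The groups were checked against their markers. All 9 tested neuronal markers of 12 were higher in neurons. Of these 9, 7 were detected in no NSC array and could not have shown a fall. The summed level of the 12 was 5946 to 7865 in neurons and 1943 to 2996 in NSCs. This sum adds each gene's brightest probe in background-corrected signal units. Map2 alone gave 2993 to 4903 of it in neurons and 1808 to 2854 in NSCs, and the other 11 genes summed to 2953 to 3162 in neurons and 135 to 217 in NSCs. Tubb3, Stmn2 and Snap25 have probes but were detected on no array. Of 8 tested NSC markers 7 were lower in neurons and Nes did not pass, while Sox1, Pax6 and Prom1 were detected on no array. Cd44, among the 7, was detected in NSCs only and could not have shown a rise. Markers of dividing cells summed to 99.3 to 105 in neurons and 14725 to 16043 in NSCs.

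Values below are normalized log2 signals unless called deposited signals, differences are Neuron minus NSC, and a call is a limma adjusted p below 0.05. Of the 11 tested Sox probes 9 were called, 5 higher and 4 lower in neurons, against 63.2% of all tested probes called, 34.7% higher and 28.5% lower. Neuron and NSC values were fully apart for 9 of the 11, against 58.7% of all tested probes. By gene, each represented by its brightest tested probe, Sox2, Sox3, Sox4 and Sox21 were higher, Sox5 and Sox9 lower, and Sox8 did not pass, against 64.6% of all tested genes called, 35.4% higher and 29.2% lower. All 3 SoxB genes were among the higher ones. Sox4, also among them, met the filter on neuron arrays only, so its probe could not have shown a fall. The platform table's annotation was used without probe sequences, so whether a probe also binds RNA of a close family member was not tested.

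**Figure D1:**
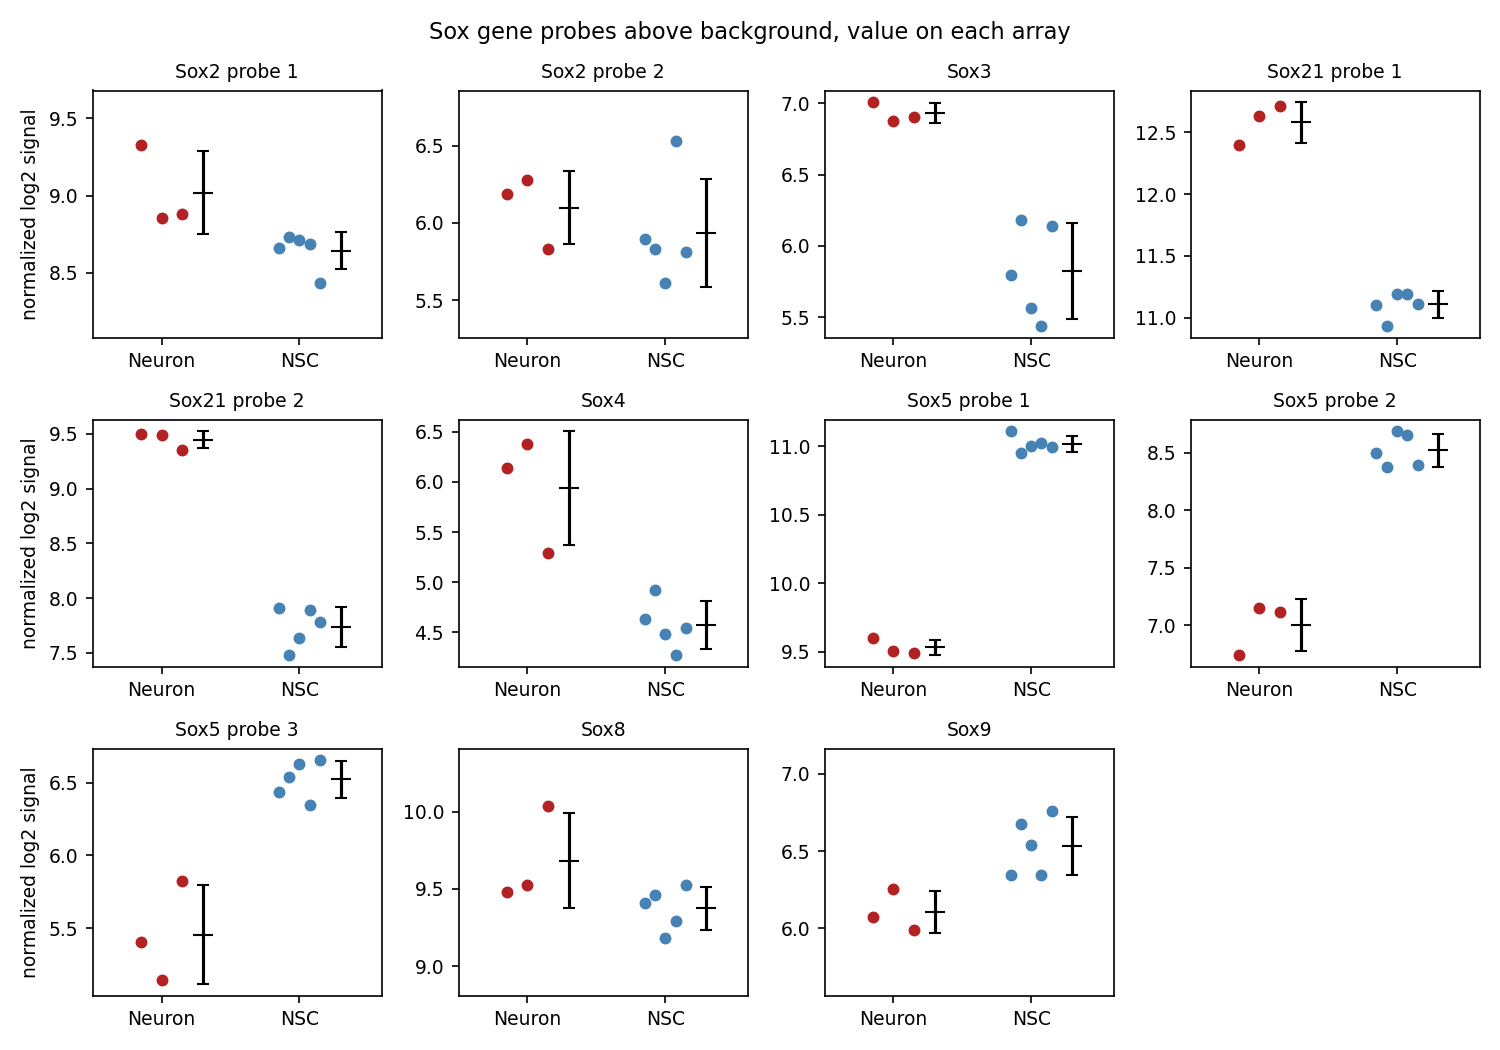
Normalized log2 signal of the 11 tested Sox probes on each array, Neuron left of NSC, with 1 point an array and the mean and SD beside the points (n = 3 Neuron, n = 5 NSC). Probes of a gene are numbered by their NSC level. The groups are apart on all probes but Sox2 probe 2 and Sox8.

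Sox21 was higher in neurons on both tested probes. In bulk samples such as these, more cells with a transcript and more transcript per cell cannot be told apart. Its brightest probe (ILMN_1254295) read 12.39, 12.63 and 12.72 in neurons, against 11.11, 10.93, 11.19, 11.19 and 11.11 in NSCs. The lowest neuron array stood above the highest NSC array by more than the range within either group. The difference was 1.48 (SE 0.11, 95% confidence interval 1.24 to 1.71, limma adjusted p = 4.70e-07), or 2.78-fold, and 4.78% of all tested genes had a larger one. The second probe (ILMN_3163306) read 9.50, 9.49 and 9.36 in neurons and 7.91, 7.48, 7.64, 7.89 and 7.78 in NSCs, a difference of 1.71 (SE 0.12, limma adjusted p = 2.71e-07). In deposited signal the brightest probe averaged 6140 ± 637 (SD, n = 3) in neurons and 2187 ± 226 (n = 5) in NSCs. The remaining probe (ILMN_2721489) was not above background on any array.

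Sox3, a SoxB1 factor of neural progenitors with 1 probe (ILMN_2976077), was also higher in neurons. It read 7.01, 6.88 and 6.90 in neurons and 5.80, 6.18, 5.56, 5.43 and 6.14 in NSCs. The neuron arrays lay close together and above every NSC array, where the spread was wider. The difference was 1.11 (SE 0.17, 95% confidence interval 0.73 to 1.49, limma adjusted p = 0.000187), or 0.64 without background correction. The probe is dim, and its deposited signal averaged 191 ± 8.93 (SD, n = 3) in neurons and 113 ± 11.1 (n = 5) in NSCs.

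Sox2, which maintains neural stem cells and is used as their marker, was slightly higher in neurons on 1 of its 2 probes. The brighter probe (ILMN_2656102) read 9.33, 8.85 and 8.88 in neurons and 8.66, 8.73, 8.72, 8.68 and 8.43 in NSCs. The groups did not overlap, but the gap between them was small, Neuron 1 stood above the other neurons and NSC 5 below the other NSCs. The difference was 0.37 (SE 0.13, 95% confidence interval 0.09 to 0.66, limma adjusted p = 0.0253), or 0.61 with median scaling. The call was lost without Neuron 1 (0.22, adjusted p = 0.131), without NSC 5 (0.32, adjusted p = 0.0545), with cyclic loess (0.31, adjusted p = 0.0525) and with the mean of both probes (0.27, adjusted p = 0.0885). The dimmer probe (ILMN_1248711) read 6.18, 6.28 and 5.83 in neurons and 5.90, 5.83, 5.61, 6.53 and 5.81 in NSCs. Its groups overlapped, with the single highest value on NSC 4, and it did not pass (0.16, 95% confidence interval -0.26 to 0.58, limma adjusted p = 0.479). That interval holds the difference of the brighter probe.

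Sox4, the SoxC factor with a probe (ILMN_2893417), was detected on all 3 neuron arrays and on no NSC array. It read 6.14, 6.38 and 5.29 in neurons and 4.64, 4.92, 4.49, 4.27 and 4.55 in NSCs, where it was not above background (detection p 0.048 to 0.94). Neuron 3 was the lowest neuron array but still above every NSC array. With the NSC side set at the lowest detected signal of each array, the neuron mean was 1.68-fold higher, or 0.75 on the log2 scale. This bound holds for the normalization used here and has no interval. The fitted difference was 1.37 (SE 0.22, limma adjusted p = 0.000281). It was 0.67 without background correction and 0.74 with an offset of 50, both below the bound. Because the filter was met on neuron arrays only, this probe could not have shown a fall.

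Sox5, the SoxD factor that in the mouse times the formation of corticofugal neurons and represses oligodendrocyte genes, was lower in neurons on all 3 tested probes. The brightest (ILMN_2631143) read 9.60, 9.51 and 9.49 in neurons and 11.11, 10.95, 11.00, 11.03 and 11.00 in NSCs. Both groups were tight, with SDs of 0.06 and 0.06, and lay far apart. The difference was -1.49 (SE 0.09, 95% confidence interval -1.68 to -1.29, limma adjusted p = 7.39e-08), which is 2.81-fold lower, and 6.95% of all tested genes had a more negative one. The next probe (ILMN_1244213) read 6.74, 7.15 and 7.12 in neurons and 8.50, 8.38, 8.69, 8.66 and 8.39 in NSCs, a difference of -1.52 (SE 0.13, limma adjusted p = 1.39e-06). The dimmest tested probe (ILMN_2610223) read 5.40, 5.15 and 5.82 in neurons and 6.44, 6.54, 6.63, 6.35 and 6.66 in NSCs. Its difference was -1.06 (SE 0.15, limma adjusted p = 7.74e-05), or -0.55 without background correction. The fourth probe (ILMN_1213910) was detected on no array. Sox6, the other SoxD gene, had 3 probes, all detected on no array, with deposited signals of 61.8 to 77.1.

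Of the SoxE genes, Sox9 was slightly lower in neurons and Sox8 did not pass. Sox9, needed for neural stem cells and for the onset of gliogenesis in the mouse, read 6.08, 6.25 and 5.99 in neurons and 6.35, 6.68, 6.54, 6.34 and 6.76 in NSCs on its 1 probe (ILMN_3007428). The highest neuron array was just below the lowest NSC array, while deposited signals overlapped at 133 ± 13.7 (SD, n = 3) in neurons and 146 ± 12.8 (n = 5) in NSCs. The difference was -0.43 (SE 0.12, 95% confidence interval -0.70 to -0.15, limma adjusted p = 0.0111), or -0.25 without background correction, and the call was lost without Neuron 3 (-0.37, adjusted p = 0.0523) and with median scaling (-0.24, adjusted p = 0.155). Sox8, which shares roles with Sox9 and Sox10 in oligodendrocyte development, read 9.48, 9.53 and 10.03 in neurons and 9.41, 9.46, 9.18, 9.29 and 9.52 in NSCs on its 1 probe (ILMN_2784686). The groups overlapped, and Neuron 3 stood above the other neurons. Its difference of 0.31 (SE 0.14, 95% confidence interval -0.0013 to 0.62, limma adjusted p = 0.0761) did not pass, but it passed without Neuron 1 (0.41, adjusted p = 0.0450) and under 4 other distinct settings, with adjusted p from 0.00494 to 0.0453.

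**Figure D2:**
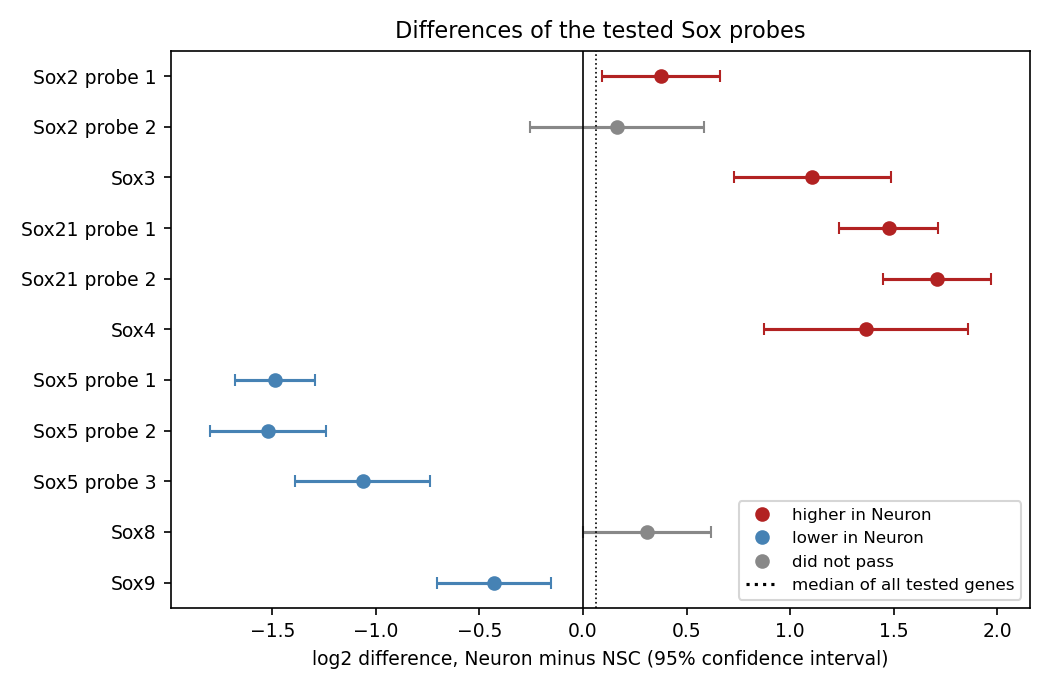
Log2 difference, Neuron minus NSC, of each tested Sox probe with its 95% confidence interval from limma (3 Neuron and 5 NSC arrays); the dotted line is the median of all 7407 tested genes, 0.06. The SoxB and SoxC probes lie right of 0, the Sox5 and Sox9 probes left of it, and the intervals of Sox2 probe 2 and Sox8 hold 0.

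**Figure D3:**
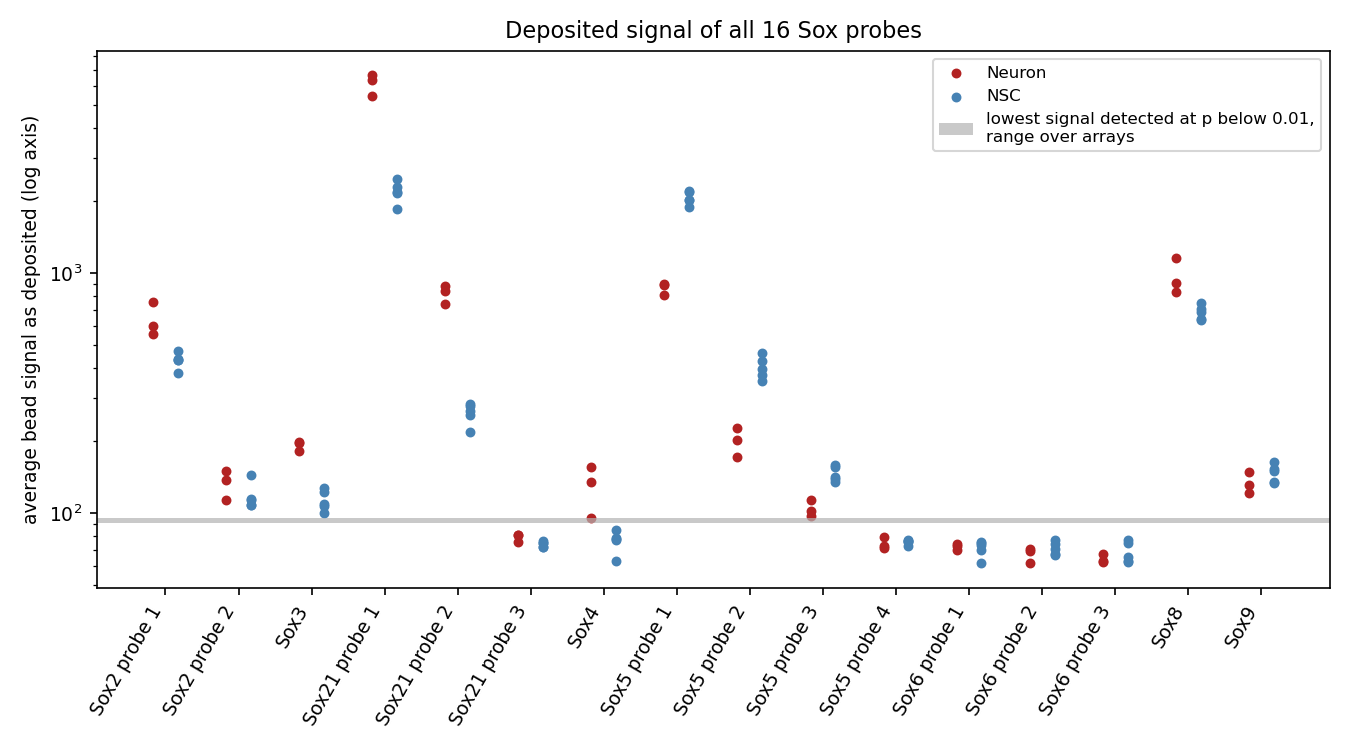
Deposited average bead signal (log axis) of all 16 Sox probes, 1 point an array, Neuron left of NSC, with the lowest detected signal of the arrays, 91.2 to 95.8, as a grey band. Sox21 probe 3, Sox5 probe 4 and the 3 Sox6 probes lie below the band in both groups, and Sox4 lies below it in NSCs alone.

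Of the other Sox genes, 9 have 13 probes, and 12 of these probes were detected on no array, with deposited signals of 61.4 to 93.5. Sox1, Sox7, Sox13, Sox15, Sox17, Sox18, Sox30 and Sry were thus not above background in either group. Sox12, the remaining SoxC gene with a probe, read 6.63, 6.73 and 6.77 in neurons and 6.16, 5.88, 5.76, 5.99 and 5.86 in NSCs on its tested probe (ILMN_3026635). All neuron arrays were above all NSC arrays, and the difference was 0.78 (SE 0.11, limma adjusted p = 8.64e-05), or 0.45 without background correction. The other Sox12 probe (ILMN_3099470) was detected on no array.

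Genes known as partners and targets of Sox proteins were counted in 5 lists and set beside all tested genes, whose median difference was 0.06 and of which 35.4% rose and 29.2% fell. Of 9 tested SoxB1 partners and targets (of 21), 2 rose and 4 fell in neurons, with a median of -0.16, and 3 did not pass. These 6 called of 9 are close to the 64.6% called among all tested genes, and the median turned to 0.05 with median scaling. The POU factor gene Pou3f4 (0.67, limma adjusted p = 0.00164) and the growth factor receptor gene Egfr (0.61, adjusted p = 0.000223) rose, while Pou3f1 (-2.87, adjusted p = 4.94e-09) and the Notch effector gene Hes1 (-2.30, adjusted p = 7.55e-08) fell the most. Pax6, Pou3f2, Lhx2, Otx2, Gli3, Shh, Six3, Vax1 and Nr2e1 were detected on no array.

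Of 8 tested SoxC targets and partners (of 12), 6 rose and 2 fell, with a median of 1.41, or 1.14 with genes seen in 1 group alone at their bound and 0.81 without background correction. Dcx, a microtubule protein of migrating neurons, was at least 13.7-fold higher in neurons by its bound, with a fitted difference of 4.58 (limma adjusted p = 2.42e-11). The homeobox gene Prox1 read 11.12 ± 0.04 (SD, n = 3) in neurons and 7.04 ± 0.22 (n = 5) in NSCs, a rise of 4.08 (limma adjusted p = 4.35e-10). Tead2, a Hippo pathway factor reported as a target of Sox4 and Sox11, read 6.52 ± 0.21 (SD, n = 3) in neurons and 11.96 ± 0.05 (n = 5) in NSCs. It fell by 5.43 on the log2 scale (limma adjusted p = 1.98e-11), and the Polycomb methyltransferase gene Ezh2 by 0.77. Dcx and the transcription factor genes Neurog2 and Pou4f1 were detected in neurons only and could not have shown a fall. Of 12 SoxD associated genes of cortical neurons and interneurons 2 were tested. Bcl11b, which marks subcerebral projection neurons, rose by 2.68 (limma adjusted p = 1.12e-07). Dlx1, a homeobox gene of interneurons, was at least 1.32-fold lower by its bound, with a fitted difference of -0.87 (limma adjusted p = 4.77e-05). Dlx1 was detected in NSCs only and could not have shown a rise.

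Of 10 tested oligodendrocyte lineage genes associated with SoxE factors (of 22), 8 rose, 1 fell and 1 did not pass, with a median of 0.90, or 0.73 with bounds. Gpr17, a receptor of committed precursors, was at least 8.25-fold higher in neurons by its bound, with a fitted difference of 3.87 (limma adjusted p = 2.02e-10). Fa2h, which hydroxylates fatty acids of myelin, was at least 4.81-fold higher by its bound, with a fitted difference of 2.67 (limma adjusted p = 1.47e-07). These genes, Pdgfra and Ugt8a were detected in neurons only, so 4 of the 8 that rose could not have shown a fall. Opalin, a myelin membrane protein gene, fell by 0.77 on the log2 scale. Mbp, Mag, Mog, Mobp, Cldn11, Enpp6, Gjb1 and Nkx2-2 were detected on no array. The 16 oligodendrocyte lineage markers with a probe summed to 16183 to 17339 in neurons and 10092 to 13237 in NSCs. Olig1 made up most of both sums, and the other 15 genes summed to 2098 to 2428 in neurons and 891 to 1023 in NSCs. Their part in the Sox differences was not tested. Of 6 tested glial and cartilage genes associated with Sox9 (of 17), 1 rose, 3 fell and 2 did not pass, with a median of -0.66, or -0.56 with bounds and -0.30 without background correction. Apcdd1, reported as a joint target of Sox9 and Nfia, was at least 19.9-fold higher in neurons by its bound, with a fitted difference of 4.96 (limma adjusted p = 6.12e-11). It was detected in neurons only and could not have shown a fall. Aldh1l1, which did not pass, was detected in NSCs only and could not have shown a rise. The glutamate transporter gene Slc1a3 fell by 1.82 on the log2 scale and the radial glial lipid carrier gene Fabp7 by 1.65. The 11 astrocyte markers summed to 790 to 878 in neurons and 4789 to 5538 in NSCs. Aldoc alone gave 672 to 761 in neurons and 2459 to 3197 in NSCs. The other genes summed to 117 to 132 in neurons and 2262 to 2526 in NSCs, while Gfap, Aqp4, Glul, Apoe and Mlc1 were detected on no array. The part of the astrocyte markers was not tested either.

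**Figure D4:**
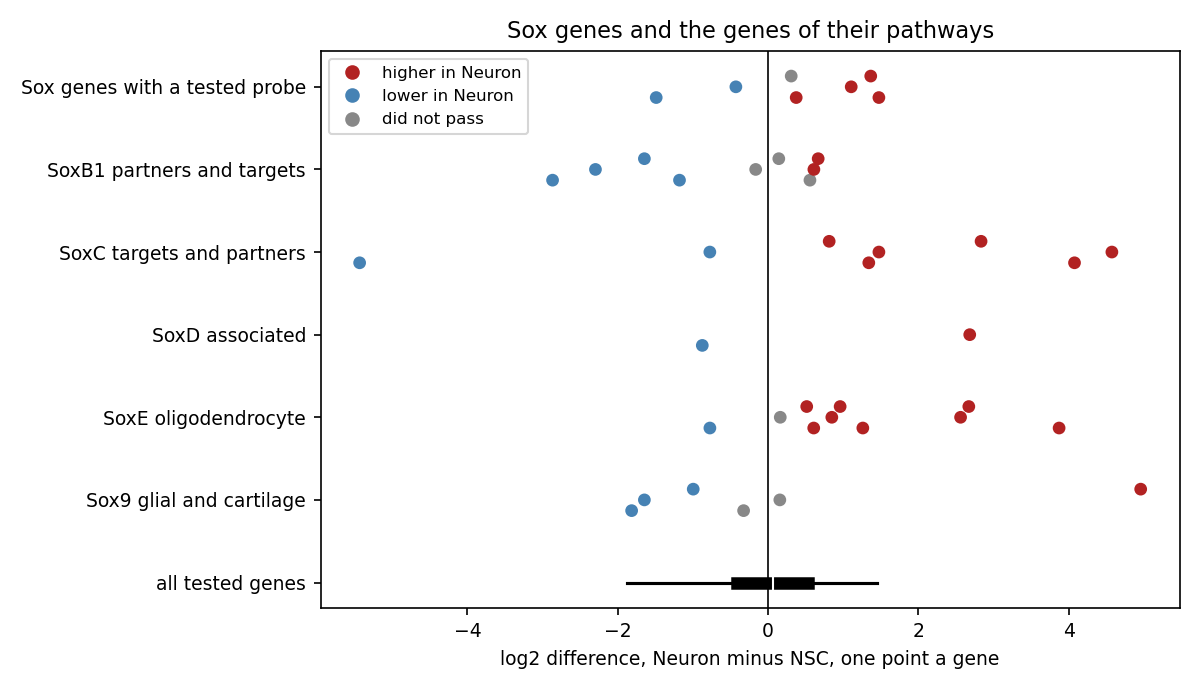
Log2 difference, Neuron minus NSC, of the tested genes of each list, 1 point a gene, with all tested genes below as the median (gap), middle 50% (thick bar) and 5th to 95th percentile (thin line). The Sox genes lie between -1.49 and 1.48, and the SoxC list runs from -5.43 to 4.58.

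Among the 7407 tested genes, those with the pattern over the 8 arrays most like Sox21, after centring each gene on its mean, were Slc22a17, Akap9 and Coa7, with root mean square differences of 0.0900, 0.0908 and 0.0923 on the log2 scale. Those most like Sox5 were Pemt, Nudt5 and Ptpn14, at 0.0599, 0.0637 and 0.0645. This likeness rests mainly on the difference between the groups, which was 1.35 to 1.54 for the genes like Sox21 and -1.53 to -1.42 for those like Sox5.

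**Figure D5:**
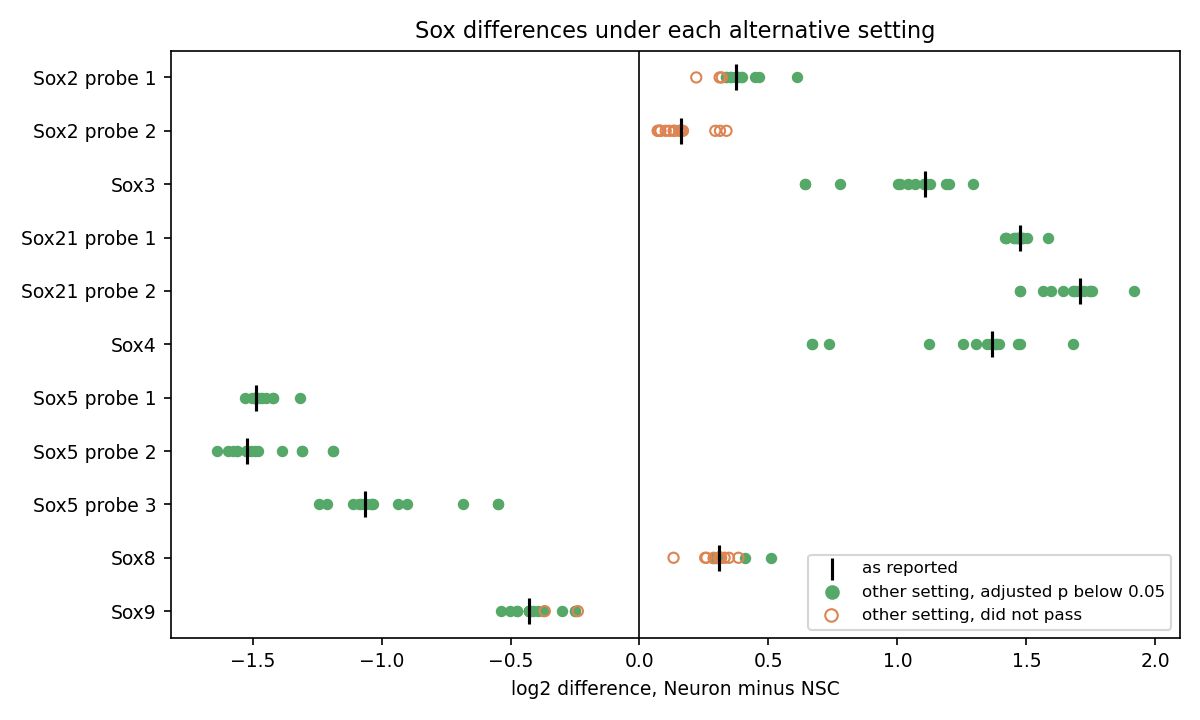
Log2 difference, Neuron minus NSC, of each tested Sox probe as reported (bar) and under each alternative setting (points; filled where the adjusted p was below 0.05). No point of any probe crosses 0, and open points occur for Sox2, Sox8 and Sox9.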

How the data were processed

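Biotin-labelled RNA was hybridised after amplification with a TotalPrep kit, per the labels' protocols. Per probe, the authors deposited an average bead signal, a linear intensity before normalization, and a detection score, a fraction of which 1 minus the score served here as detection p. The log2 values that the authors deposited beside these matched, within 5.00e-09, log2 of the signals after quantile normalization and no background correction. The submitters' processing notes name limma, and other upstream steps are not given in the sources used here.

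Background correction used limma's neqc (limma 3.58.1, R 4.3.3), which estimates it from detection p-values, with 16 added before quantile normalization and the log2 step. Differences are thus relative to other probes, and the added 16 shrinks those of dim genes. To be tested, a probe needed detection (p below 0.01) on 3 arrays or more. These were fitted with lmFit and eBayes, with group as the only term, and adjusted by Benjamini-Hochberg over all 10499. A probe detected in 1 group alone gives a bound: the bright group's mean against the mean, over the dim arrays, of the higher of its own value and the lowest detected value. A bound holds for this normalization, and no interval or test was made for it. Genes were named from the platform table, which gives 1 gene for 23978 probes, several for 0 and none for 1719. Of these, 23962 were found by gene identifier in the GRCm38.p6 gene table, and 0 symbols changed.

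The members, lists and alternatives were chosen with earlier results of these data known. All members and all other Sox genes with a probe are named, and in each list the 2 called genes that rose most and the 2 that fell most. Some genes detected on no array were named beyond this rule, chosen after their values were seen. Replicate numbers are shared between the groups, but deviations of same-numbered samples correlated at only -0.017 to 0.015, so they were not used as pairs. The number of arrays limits the precision.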

Additional observations from a re-analysis of the deposited data

Results flagged for a closer look

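On the brighter Sox2 probe, NSC 5 read 8.43, below the other NSC arrays, which lay between 8.66 and 8.73, while the neurons read 9.33, 8.85 and 8.88. The gap to the nearest array was 0.749 of the NSC range, above Dixon's critical value of 0.71 for 5 values. It was the only one of 11 tested Sox probes with such an array, and chance gives one in about 5% of groups. With 11 probes screened, 1 such array is not unlikely by chance. The difference was 0.32 without this array (limma adjusted p = 0.0545), so the call rests on it as well as on Neuron 1.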

How the results depend on the processing

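Each Sox probe kept its direction under all of the alternatives run for it, which covered background correction, scaling, the filter, the variance model, array weights, the replicate block and leaving out each array. The calls of Sox3, Sox4, Sox21 and Sox5 were kept wherever they were tested. Detection on all 8 arrays left Sox4 untested. Sox8 passed without background correction and with the authors' values (0.29 in both), with an offset of 50 (0.30), with median scaling (0.51) and with a trended robust variance (0.31). Sox2 did not pass with cyclic loess (0.31), nor Sox9 with median scaling (-0.24), which left 1 lower Sox gene. Median scaling moved the median difference of all tested genes to 0.23 and the split of called genes to 3297 higher and 1693 lower, against 2624 and 2164. Leaving out 1 array gave 0.22 to 0.46 for Sox2, 0.13 to 0.41 for Sox8, -0.50 to -0.37 for Sox9 and 1 to 2 lower Sox genes. With the replicate block, 9 Sox probes and 4783 genes were called, against 9 and 4788 without it, and no Sox call changed. Detection on all 8 arrays, which tests fewer genes, left 5 called genes in the SoxC list, 1 in the SoxD list, 5 in the SoxE list and 2 in the Sox9 list. The list medians moved too. The SoxB1 median was 0.05 with median scaling, 0.02 with no filter, -0.04 without Neuron 1, -0.28 without Neuron 2, -0.10 without NSC 1 and -0.30 without NSC 5. With no filter, which adds undetected genes, the SoxC median was 0.51, the SoxE median 0.15 and the Sox9 median -0.02. With detection on all 8 arrays the SoxC median was 0.81, the SoxE median 0.56 and the Sox9 median -1.65. Results under the alternatives numbered 689 for 35 genes, which are the tested genes of the 5 lists and Sox12. Of these results, 671 kept direction and call, 1 lost its call, 13 gained one and 4 changed sign. None of those 4 was called: Nes at 0.0515 with median scaling, and on leaving out 1 array Pou3f3 (-0.0352 to 0.346), Cspg4 (-0.0427 to 0.288) and Nfib (-0.00341 to 0.264). The cause of these changes was not tested.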

Other observations

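Of 7 neural crest and Schwann cell markers with a probe, a lineage in which SoxE factors also act, 2 were tested. Both were higher in neurons, as were 35.4% of all tested genes, but Egr2 was detected in neurons only and could not have shown a fall. Egr2, a zinc finger factor of myelinating Schwann cells, read 7.21 ± 0.18 (SD, n = 3) in neurons and 4.82 ± 0.09 (n = 5) in NSCs, where it was not above background. It was at least 4.03-fold higher by its bound, with a fitted difference of 2.39 (limma adjusted p = 8.07e-09). Tfap2a, a neural crest factor, read 5.49 ± 0.06 (SD, n = 3) in neurons and 5.02 ± 0.18 (n = 5) in NSCs, a difference of 0.47 (limma adjusted p = 0.00416), and was above background on 1 NSC array. Foxd3, Pax3, Ngfr, Mitf and Dct were detected on no array. Of 10 pluripotency markers 4 were tested, 3 of them lower and 0 higher in neurons, against 29.2% and 35.4% of all tested genes. Esrrb and Klf4 were detected in NSCs only and could not have shown a rise. Pou5f1, Nanog, Zfp42, Tdgf1, Dppa3 and Utf1 were detected on no array. Of 7 mesoderm and endoderm markers with a probe, Acta2 alone was tested, at -0.62, and Gata4, Foxa2, Sox17, Col1a1 and Col2a1 were detected on no array.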
